A study of Mus musculus with 24 samples.

Results

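The 8 genes described here carry, receive or report signaling by transforming growth factor β (TGF-β). They were looked up in the gene table by symbol, and all 8 were found among its 32285 genes. Tgfb1, Tgfb2 and Tgfb3 encode the ligands, Tgfbr1 and Tgfbr2 encode the paired receptor chains, Tgfbi and Thbs1 encode extracellular proteins linked to the pathway, and Smad7 encodes its inhibitor inside the cell.

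TGF-β is secreted in a latent form that must be released before it can bind. The ligand brings the type 2 receptor (Tgfbr2) and the type 1 receptor (Tgfbr1) together, which phosphorylates Smad2 and Smad3, and these enter the nucleus with Smad4. In tumors the pathway is known for restraining T cells and for driving matrix production by fibroblasts.

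The genes were measured by single-cell RNA-Seq in tumors of Panc02, a mouse pancreatic cancer cell line, grown under the skin of wild-type male C57BL/6 mice that were 6 to 7 weeks old at implantation. PancVAX, a neoantigen peptide vaccine, was injected on days 12 and 19. Dosing with anti-PD-1 began on day 12, anti-CTLA-4 followed on days 15 and 22, and tumors were taken on day 38. These days follow the labels and the study's methods. A figure legend of the study gives an earlier second day for anti-CTLA-4 and an earlier day for the tumors. The 3 agents were crossed into 8 treatments, 4 with the vaccine (PancVAX alone, PancVAX + Anti-CTLA-4, PancVAX + Anti-PD-1, or PancVAX + Anti-PD-1 + Anti-CTLA-4) and 4 without it (Isotype Control, Anti-CTLA-4, Anti-PD-1 and Anti-PD-1 + Anti-CTLA-4). Each treatment had 1 library of the dissociated whole tumor and 1 library of the fraction that a Percoll gradient had enriched for immune cells. In the study's methods, mice without the vaccine received saline in its place and mice without an antibody its isotype, and the vaccine was given with an adjuvant and a STING agonist, so PancVAX here means peptides with both. Mice of a treatment were pooled before the libraries were made, how many is not stated in what was read here, and the same mice may be in both libraries. Both libraries of a treatment were therefore summed into 1 pool, which gave 8 pools, 4 with and 4 without each agent, and P values measure the spread between pools of different treatments and not between mice.

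Of 144994 barcodes, 57357 passed the limits on cells, and 38239 of these entered 1 of 12 lineage gates defined by 6 marker genes each, none of them a TGF-β gene. The libraries held 77132398 to 176233225 unique molecular identifiers (UMIs) over all barcodes. Passing cells held 112830207 UMIs in whole-tumor libraries and 119336063 in Percoll libraries, and shares of UMIs below are of these. They are not shares of whole libraries or tumors, since the limits left out barcodes with many UMIs. With no upper limits 120419 barcodes passed, at a median of 10606 UMIs against 3291, and epithelial or tumor cells were 9947 in place of 2241. Levels are given as CPM, the UMIs of a gene scaled to the same fixed total of UMIs in each gate, with the SD over pools, and are compared only between cells for the same gene. The Percoll library of PancVAX + Anti-PD-1 stood apart, with 7413 cells against 1793 to 4902 in the other 15 libraries, and the pool of that treatment was the one pool with at least 10 mast cells or keratinocytes. Across the libraries, 2057 barcode sequences of passing cells occurred in more than 1 library, with 11 to 42 shared by libraries of the same treatment and 5 to 45 by the other pairs.

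In these tumors the ligand genes were divided between cell types. Tgfb1 was read in each of the 10 lineages that could be compared. Among these lineages, Tgfb3 was highest in stromal cells and Tgfb2 was read mainly in stromal and endothelial cells. Tgfb1, the ligand made most widely by immune cells, averaged 509 ± 98.4 CPM in NK cells, 364 ± 19.1 CPM in macrophages or monocytes and 271 ± 117 CPM in B cells (SD, n = 8 pools for each level). It averaged 197 ± 24.7 CPM in T cells and 214 ± 19.99 CPM in neutrophils, and was lowest in stromal cells at 89.3 ± 32.4 CPM. Of the Tgfb1 UMIs of passing cells, macrophages or monocytes held a median of 49.5% in whole-tumor libraries and 37.2% in Percoll libraries. They held 30.3% and 24.2% of the UMIs of all genes.

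Tgfb2, a ligand known from stromal and endothelial cells, averaged 54.4 ± 47.2 CPM in stromal cells and 28.0 ± 22.2 CPM in endothelial cells. The mean in each of the other 8 lineages was at or below 0.44 CPM, and all passing cells together held 223 Tgfb2 UMIs. Cells outside the gates held 41 of the 124 Tgfb2 UMIs in whole-tumor libraries and 35 of the 99 in Percoll libraries. Stromal cells held 44 and 42 of them, and endothelial cells 23 and 12. NK cells held 0 Tgfb2 UMIs among 1125796, which allows a level of up to 2.66 CPM, and conventional dendritic cells held 0 among 1660020, which allows up to 1.81 CPM (counting error only). Tgfb3 averaged 68.3 ± 15.3 CPM in stromal cells, 19.0 ± 6.64 CPM in epithelial or tumor cells, 16.6 ± 5.05 CPM in macrophages or monocytes and 2.11 ± 0.52 CPM in T cells. Of the Tgfb3 UMIs of passing cells in whole-tumor libraries, cells outside the gates held a median of 61.6%, against 32.3% of the UMIs of all genes. Tgfb3 averaged 32.4 ± 3.34 CPM in a gate of cells with UMIs of both Krt8 and Krt18, keratins of epithelial and tumor cells. That gate also required fewer than 2 markers of each immune and endothelial lineage, and it could include gated cells. Without this added condition, 8390 of the 19118 ungated cells had UMIs of both keratins.

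The receptor chains had different distributions. Tgfbr1 was highest in macrophages or monocytes at 140.4 ± 7.1 CPM and in neutrophils at 103 ± 10.2 CPM, and was at 11.2 ± 3.06 CPM in T cells. Tgfbr2 was highest in stromal cells at 297 ± 124 CPM, followed by endothelial cells at 167 ± 78.9 CPM and B cells at 148 ± 24.1 CPM, and was at 123 ± 8.73 CPM in T cells and 110.2 ± 7.86 CPM in macrophages or monocytes. Among passing whole-tumor cells, macrophages or monocytes thus held a median of 65.2% of Tgfbr1 UMIs and 36.9% of Tgfbr2 UMIs. T cells held 28.6% of Tgfbr2 UMIs there.

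Tgfbi, a secreted matrix protein named for its induction by TGF-β, was mainly a macrophage transcript, at 897 ± 51.8 CPM in macrophages or monocytes, 154 ± 24.6 CPM in neutrophils and 93.3 ± 73.5 CPM in stromal cells. Among passing cells, macrophages or monocytes held a median of 86.9% of its UMIs in whole-tumor and 86.0% in Percoll libraries. The 7.21 ± 1.67 CPM of Tgfbi in T cells was 0.80% of the macrophage level, close to the 0.88% at which C1qa, a macrophage gene, was read in T cells. Thbs1, thrombospondin 1, a matrix glycoprotein able to activate latent TGF-β, was highest in neutrophils at 1635 ± 160 CPM, with 488 ± 104 CPM in macrophages or monocytes, 346 ± 240.2 CPM in stromal cells and 238 ± 59.2 CPM in epithelial or tumor cells. Smad7, which blocks the type 1 receptor and is itself induced by the pathway, was highest in lymphocytes, at 422 ± 91.1 CPM in NK cells, 329 ± 80.5 CPM in T cells and 240.4 ± 38.0 CPM in B cells, against 79.3 ± 7.66 CPM in macrophages or monocytes and 68.2 ± 16.4 CPM in epithelial or tumor cells. Among passing whole-tumor cells, T cells held a median of 51.3% of Smad7 UMIs and 22.0% of the UMIs of all genes.

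**Figure D1:**
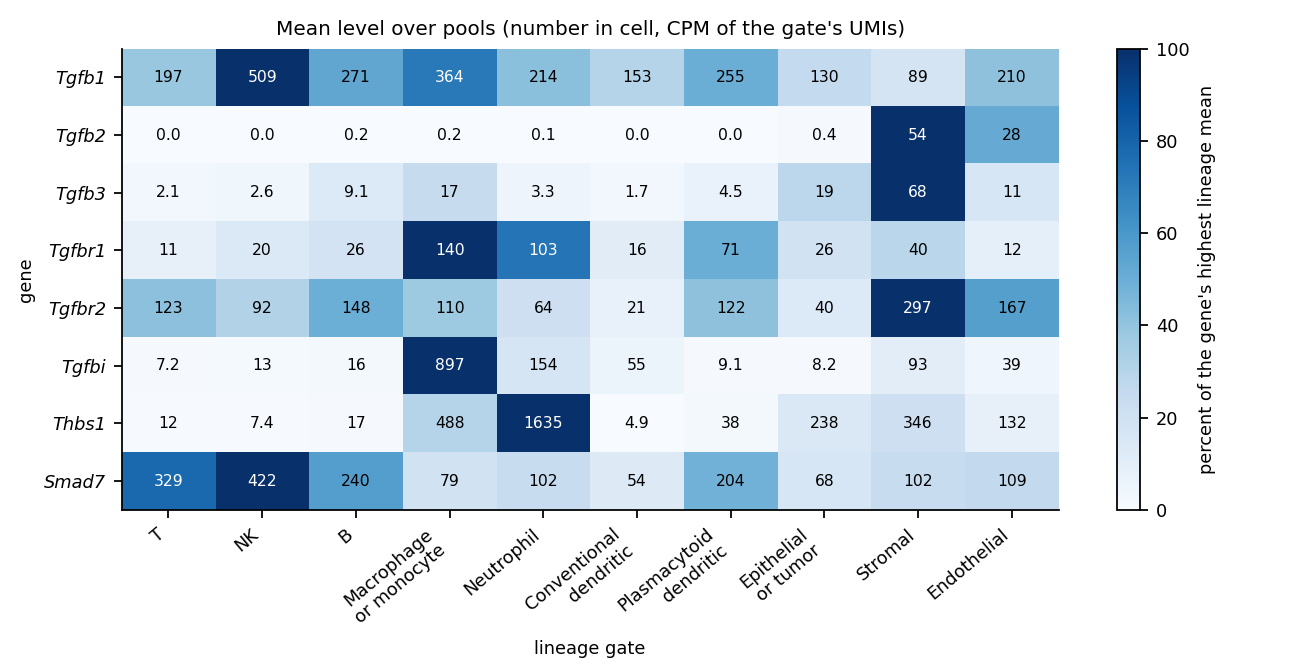
Mean CPM over 8 pools (number in each cell) of the 8 TGF-β genes (rows) in 10 lineage gates (columns), with the shade giving the percent of each gene's own highest lineage mean. Tgfb2 stands in stromal and endothelial cells at 54 and 28 CPM, Tgfbi in macrophages or monocytes at 897 CPM, Thbs1 in neutrophils at 1635 CPM and Smad7 in NK and T cells at 422 and 329 CPM.

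Neighbors in the order of the lineages were compared by an exact two-sided sign-flip permutation test over the 8 pools, in 72 pairs. Of these, 24 had an unadjusted P below 0.05 and 0 passed after Benjamini-Hochberg adjustment, since the smallest P that 8 pools allow is 0.0078 and the 9 pairs that reached it had an adjusted P of 0.0625. Those 9 pairs differed in the same direction in 8 of 8 pools and included macrophages above neutrophils for Tgfbr1 (log2 difference 0.44) and Tgfbi (2.55), neutrophils above macrophages for Thbs1 (1.76), T cells above B cells for Smad7 (0.43) and stromal above epithelial or tumor cells for Tgfb3 (1.84). Neighbors that did not separate included Tgfb1 in endothelial and T cells (P = 0.789, exact) and Tgfbr2 in endothelial and B cells (P = 0.844, exact). With no upper limits on genes and UMIs per cell, 32 of the 72 pairs passed.

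Within lineages, 28 of 88 comparisons between sub-gates passed the same exact permutation test after adjustment over all 88, with 35 at an unadjusted P below 0.05. This count was 0 in whole-tumor libraries alone and 14 in Percoll libraries alone. The smallest P of 0.0078 applies here too, so a pair can pass only where many pairs reach it together. Gates with fewer than 8 libraries of at least 10 cells have a larger smallest P. These counts therefore do not measure how far the differences held in each preparation. Among macrophages or monocytes, the Ccr2 monocyte gate (Ccr2 with none of C1qa, C1qb and C1qc) had more Thbs1 than the C1q macrophage gate, at 2713 ± 472 against 419 ± 111 CPM, and more Tgfbi, at 1393 ± 368 against 886 ± 53.1 CPM. The same monocytes had more Tgfb1 (552 ± 74.1 against 358 ± 19.6 CPM) but less Tgfbr1 (38.0 ± 17.6 against 144 ± 7.02 CPM), less Tgfbr2 (30.7 ± 17.7 against 113 ± 7.95 CPM) and less Tgfb3. All 6 differences had the same direction in 8 of 8 pools, with an adjusted P of 0.0327 for each by the exact permutation test. The Ccr2 monocyte gate held 226 cells in all.

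Neutrophils also divided along these genes. Those with Retnlg and no Siglecf, a lectin gene that marks a tumor-associated neutrophil state, had more Thbs1 than Siglecf neutrophils, at 2203 ± 260.2 against 1598 ± 243 CPM, and more Tgfbi, at 243 ± 45.6 against 101 ± 18.1 CPM. Siglecf neutrophils had more Tgfbr1, at 109 ± 19.3 against 54.0 ± 19.7 CPM. These 3 differences held in 8 of 8 pools (adjusted P = 0.0327 for each, exact permutation test).

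Among T cells, Smad7 was lower in CD8 T cells, at 304 ± 88.8 CPM, than in CD4 T cells, at 392.2 ± 64.1 CPM, and regulatory T cells (Treg), at 440.3 ± 73.6 CPM. Within CD8 T cells, it was 385 ± 61.5 CPM in naive cells, 362 ± 104 CPM in cells with neither naive nor exhaustion genes (other CD8) and 245 ± 54.5 CPM in exhausted cells, which were gated on at least 2 of Pdcd1, Havcr2, Lag3, Tox and Tnfrsf9. Tgfb1 ran the other way, with 101 ± 16.1 CPM in naive, 147 ± 13.6 CPM in other and 238 ± 47.6 CPM in exhausted CD8 T cells. Tgfbr1 was highest in Treg among T cells, at 34.4 ± 13.0 CPM against 8.90 ± 3.22 CPM in CD8 T cells. These T cell differences passed adjustment, except that naive and other CD8 T cells were not separated for Smad7, and Tgfbr1 was higher in Treg than in CD8 T cells in 7 of 8 pools (adjusted P = 0.0491, exact permutation test).

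The main comparison asked how these genes differed in tumors given PancVAX. Each gate was fitted with edgeR's quasi-likelihood test across all genes with both antibodies as covariates, and a gene was called at a Benjamini-Hochberg adjusted P below 0.05 and a log2 fold change beyond 0.5. Over 10 lineages, 1 of 53 fitted values of the 8 genes was called, Thbs1 in T cells, with 7 at an unadjusted P below 0.05 and 1 called by DESeq2. Over all genes and the same lineages, 1.75% of values were called. Over 12 sub-gates, 4 of 59 values were called, all higher with PancVAX and all in CD8 T cells, against 3.57% of the values of all genes. The median log2 fold change of the fitted members was 0.31 in T cells, 0.28 in CD8 T cells, -0.02 over all cells and -0.0042 in C1q macrophages, and over all gates it ran from -0.19 in B cells to 0.48 in gamma-delta T cells, where 3 members were fitted. That of all genes ran from -0.01 to 0.03 over the same gates.

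Over the CD8 T gate, whose mixture also differed, Smad7 and Tgfbr1 were higher with PancVAX. Of 7 members fitted there 2 were called, where 11.4% of the 10964 genes tested were called. Smad7 was at 294 CPM in PancVAX, 456 CPM in PancVAX + Anti-PD-1, 370.4 CPM in PancVAX + Anti-CTLA-4 and 365 CPM in PancVAX + Anti-PD-1 + Anti-CTLA-4. Without the vaccine it was at 281 CPM in Anti-PD-1, 259 CPM in Anti-CTLA-4, 211 CPM in Anti-PD-1 + Anti-CTLA-4 and 192 CPM in Isotype Control. The groups did not overlap, although PancVAX alone lay only just above Anti-PD-1. The log2 fold change was 0.58 ± 0.13 (SE, 4 against 4 pools, edgeR adjusted P = 0.00735), from a mean of 236 ± 41.5 to 371 ± 66.3 CPM (SD).

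The Smad7 difference was present in both preparations, with a log2 fold change of 0.66 in whole-tumor libraries alone (edgeR adjusted P = 0.000569) and 0.57 in Percoll libraries alone (adjusted P = 0.0192). It fell below the fold limit without the PancVAX + Anti-PD-1 pool (0.47), without the Anti-PD-1 + Anti-CTLA-4 pool (0.46), without the Isotype Control pool (0.49) and without the Percoll library of PancVAX + Anti-PD-1 (0.44), with edgeR's adjusted P between 0.0114 and 0.0310 in these 4 fits. In T cells as a whole the log2 fold change of Smad7 was 0.44 ± 0.12, short of the fold limit (edgeR adjusted P = 0.0245).

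Tgfbr1, the type 1 receptor chain, was at 8.93 CPM in PancVAX, 13.7 CPM in PancVAX + Anti-PD-1, 13.0 CPM in PancVAX + Anti-CTLA-4 and 10.5 CPM in PancVAX + Anti-PD-1 + Anti-CTLA-4. It was at 6.19 CPM in Anti-PD-1, 5.52 CPM in Anti-CTLA-4, 5.99 CPM in Anti-PD-1 + Anti-CTLA-4 and 7.33 CPM in Isotype Control. Each pool with the vaccine was above each pool without it, with a log2 fold change of 0.83 ± 0.18 (SE, edgeR adjusted P = 0.00797). The values rest on 405 UMIs among 10019 CD8 T cells. With no upper limits on genes and UMIs per cell the log2 fold change of Tgfbr1 was 0.31 (edgeR adjusted P = 0.273), and the call was lost. The other members fitted in CD8 T cells had log2 fold changes from -0.09 (Tgfb1) and -0.01 (Tgfbr2) to 0.84 (Thbs1), with none called.

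The mixture of the CD8 T gate differed between the same pools. Exhausted cells held 34.1% to 47.5% of the gate's UMIs with PancVAX and 73.5% to 81.1% without it, and other CD8 T cells 43.2% to 51.0% and 8.70% to 11.9% (P = 0.0286 for each, exact two-sided permutation test over 4 against 4 pools, the smallest it can give). These are shares of gates set by single UMIs of the exhaustion and naive genes, not of cell types, and exhausted cells had the lower Smad7 level. Mean Tgfbr1 was also lowest in exhausted cells, at 7.17 CPM against 10.1 CPM in other and 14.4 CPM in naive CD8 T cells. For Tgfbr1, exhausted cells were separated from naive cells (adjusted P = 0.0491, exact sign-flip permutation test) but not from other CD8 T cells (adjusted P = 0.252, same test). With each pool weighted to the mean shares over all pools, an alternative added after seeing the data, Smad7 was at 267 to 418 CPM with and 199 to 294 CPM without PancVAX, which overlapped, with a log2 difference of 0.46 (P = 0.0857, exact permutation test). Tgfbr1 was then at 8.73 to 12.7 and 5.16 to 7.85 CPM, with no overlap and a log2 difference of 0.62 (P = 0.0286, exact permutation test). The P values at fixed shares were not adjusted over genes or for the antibodies, so the call rule was not applied.

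The 2 genes differed in where among CD8 T cells they were called. In exhausted CD8 T cells, Tgfbr1 was at 8.47 to 10.6 CPM with and 4.08 to 5.75 CPM without PancVAX, with a log2 fold change of 0.94 ± 0.22 (SE, edgeR adjusted P = 0.0250). The background in this gate was 3.42% of genes called. That call was lost in whole-tumor libraries alone (0.80, edgeR adjusted P = 0.247), in Percoll libraries alone (1.02, adjusted P = 0.138), without the Percoll library of PancVAX + Anti-PD-1 (0.83, adjusted P = 0.0713) and with no upper limits (0.18). When 1 pool was left out the call was lost in 6 of 8 fits, and held without PancVAX or without Isotype Control. Smad7 had a log2 fold change of 0.28 ± 0.13 in exhausted cells and was not called (edgeR adjusted P = 0.232).

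In other CD8 T cells Tgfbr1 had a log2 fold change of 0.59 ± 0.42 and was not called (edgeR adjusted P = 0.458, 168 UMIs), at 9.80 to 16.1 CPM with and 2.54 to 11.6 CPM without PancVAX. Smad7 was called there at a log2 fold change of 0.57 ± 0.12 (SE, edgeR adjusted P = 0.00421), beside 7.19% of genes called. Its pools ran from 364 to 533 CPM with and 217 to 353 CPM without the vaccine, with no overlap. Without the Percoll library of PancVAX + Anti-PD-1 this value was 0.44, below the fold limit, and with no upper limits it was 0.62 at an edgeR adjusted P of 0.0548. It also fell to between 0.47 and 0.49 in 4 of 8 fits that left out 1 pool, those without PancVAX + Anti-PD-1, PancVAX + Anti-CTLA-4, Anti-PD-1 + Anti-CTLA-4 or Isotype Control. In naive CD8 T cells Smad7 had a log2 fold change of 0.11, in CD4 T cells 0.27 and in Treg -0.08, with none called, beside 3.05%, 1.48% and 0.0523% of genes called. Whether the PancVAX difference itself differed between these gates was not tested.

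**Figure D2:**
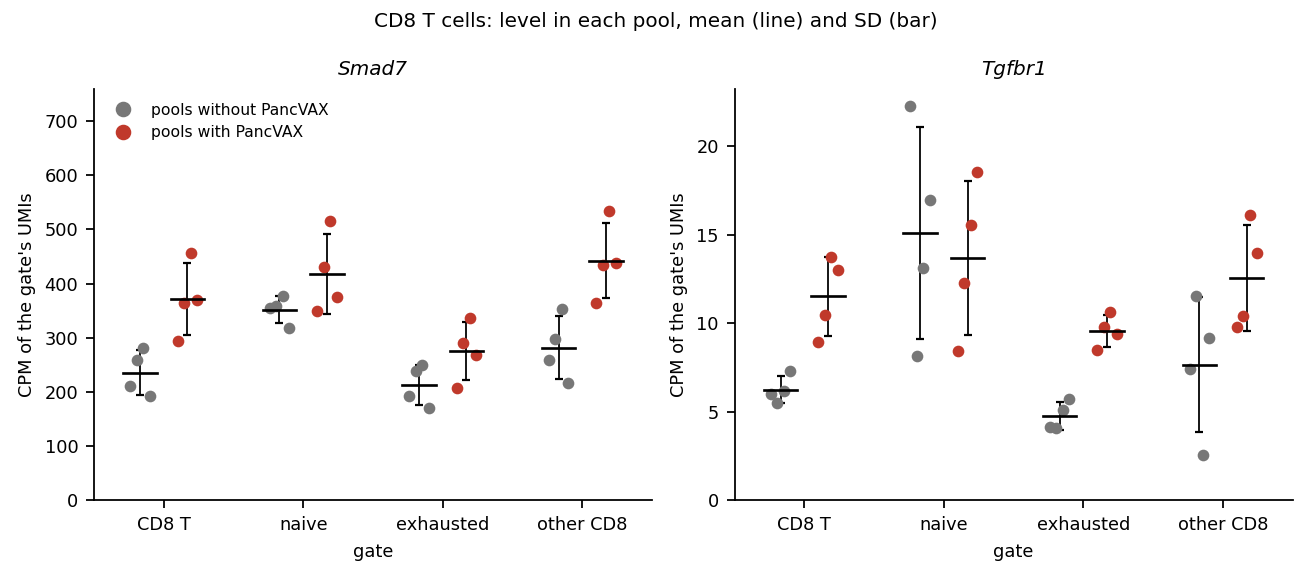
Smad7 and Tgfbr1 in CPM of the gate's UMIs (y axis) in each of 4 pools without and 4 pools with PancVAX, in all CD8 T cells and 3 sub-gates (x axis), with lines at the mean and bars for the SD. In all CD8 T cells the means are 236 and 371 CPM for Smad7, and each Tgfbr1 pool with PancVAX lies above 8 CPM where those without lie below 8 CPM.

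Markers of other cells were read in the same CD8 T cells. The 6 stromal markers, all detected, summed to 7.41 to 11.2 CPM with and 2.43 to 7.30 CPM without PancVAX, the 6 epithelial or tumor markers to 44.4 to 83.2 and 23.7 to 53.9 CPM, and the 6 T cell markers to 3919 to 4313 and 4899 to 5183 CPM. The 6 macrophage markers summed to 22.5 to 28.7 CPM with and 18.2 to 23.1 CPM without the vaccine. The 6 NK markers summed to 83.3 to 118 CPM with and 158 to 231 CPM without PancVAX, and the 6 mast cell markers to 5.23 to 11.8 and 13.6 to 18.045 CPM, with no overlap in either. The part of these in the differences of Smad7 and Tgfbr1 was not tested. Tgfbr1 in CD8 T cells was 6.34% of its macrophage level, where C1qa was 0.80% of its own.

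The other genes of the pathway were read from a list of 34, of which 25 could be fitted in CD8 T cells. With PancVAX 8 rose and 1 fell past the call rule, beside the 11.4% of all genes called in this gate, whose exhausted share differed as given above. Of the 25, 14 had an unadjusted P below 0.05 and 18 were above 0, with a list median of 0.50 on the log2 scale against 0.02 for all genes. The largest called rises were of Bgn, a matrix proteoglycan (log2 fold change 1.45 ± 0.27), Smad3, a receptor-activated signal transducer (1.44 ± 0.17), Tgfbr3, a ligand co-receptor (1.16 ± 0.31), Itgae, the CD103 integrin chain of tissue-resident T cells (0.93 ± 0.16), and Pmepa1, a feedback inhibitor (0.86 ± 0.16). Smad3 ran from 16.8 to 22.1 CPM with and from 4.79 to 7.52 CPM without the vaccine, and Itgae from 15.9 to 24.5 and from 8.18 to 12.7 CPM, with no overlap in either.

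Itgav, the αV chain of integrins that release active TGF-β, was the gene that fell, by 0.88 ± 0.10 on the log2 scale, from 161 to 201 CPM without to 87.3 to 133 CPM with PancVAX. Tgif1, Skil and Ski, which encode repressors of Smad-driven transcription, rose by 0.83, 0.63 and 0.61. Smad2, Smad4 and Smurf1 had log2 fold changes of 0.02, -0.16 and 0.08 and were not called. Smurf2 was at 0.497 (edgeR adjusted P = 0.00495), short of the fold limit only. With no upper limits on cells 5 of the list were called, Smad3 was still called at 0.51 (edgeR adjusted P = 0.0415), and Bgn at 0.50, Pmepa1 at 0.46 and Itgav at -0.48 were not. Tgfbr3 was not called in whole-tumor libraries alone (0.58, edgeR adjusted P = 0.387) or by DESeq2 (adjusted P = 0.0839), nor in 4 of 8 fits that left out 1 pool, those without PancVAX + Anti-PD-1, PancVAX + Anti-CTLA-4, Anti-PD-1 + Anti-CTLA-4 or Isotype Control.

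**Figure D3:**
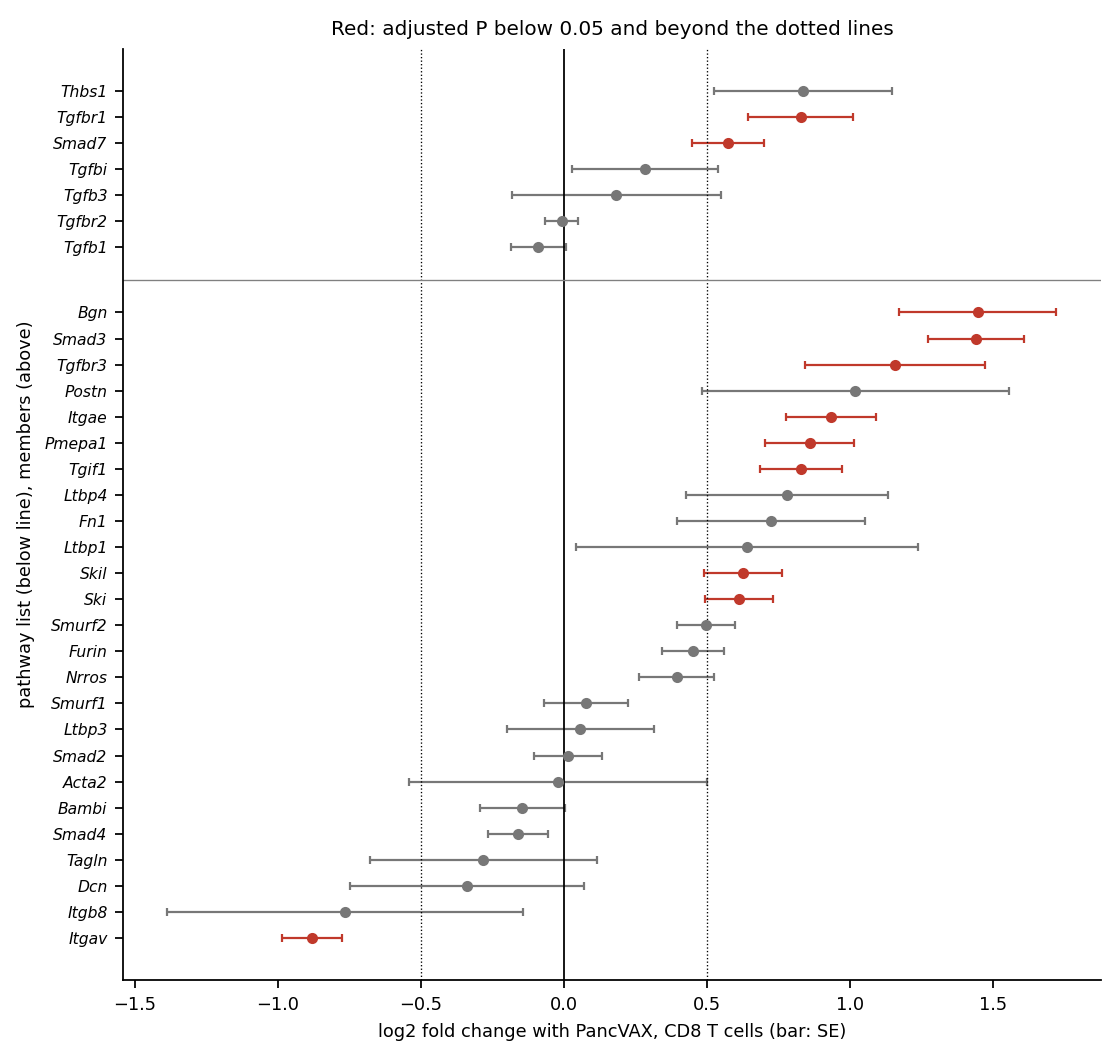
Log2 fold change with PancVAX in CD8 T cells (x axis, bars for the SE) of the fitted TGF-β genes (above the line) and the fitted genes of the pathway list (below the line). Red points were called, among them Tgfbr1 at 0.83, Smad7 at 0.58, Smad3 at 1.44 and, on the left, Itgav at -0.88.

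In T cells together, where 8.83% of genes were called with PancVAX, 7 of 28 fitted list genes rose and Itgav fell. The largest called rises were Bgn (log2 fold change 1.48), Smad3 (0.92), Tgif1 (0.73), Skil (0.65) and Pmepa1 (0.61). The Smad3 call was lost in 1 of 19 alternative fits, at 0.45, and the Itgav call in 1 of 19, at -0.36. Bgn is a stromal matrix gene, and the 6 stromal markers summed in T cells to 7.36 to 13.6 CPM with and 2.57 to 8.70 CPM without PancVAX; their part in its value was not tested. Exhausted CD8 T cells, with 3.42% of all genes called, had 4 of 22 fitted genes higher, Smad3 (2.15 ± 0.27), Bgn (1.39), Pmepa1 (0.83) and Tgif1 (0.61). None of these 4 was called with no upper limits, with Smad3 at 0.22, Bgn at 0.26, Pmepa1 at 0.31 and Tgif1 at 0.28. Leaving out 1 pool ended the Pmepa1 call in 5 of 8 fits (it held without PancVAX, Anti-CTLA-4 or Isotype Control) and the Tgif1 call in 6 of 8 (it held without PancVAX or Isotype Control). Over all alternative fits of this gate, the Bgn call was lost in 3 of 18, the Pmepa1 call in 7 of 19 and the Tgif1 call in 9 of 19. In other CD8 T cells, with 7.19% of all genes called, Tgif1 (0.79) and Ski (0.59) rose while Itgav fell by 1.12 and Dcn, a stromal proteoglycan that binds TGF-β, fell by 2.24. The Dcn value was -0.29 in Percoll libraries alone, -0.28 with no upper limits and -1.36 without the Isotype Control pool, and these 3 fits and the fit without the Anti-PD-1 + Anti-CTLA-4 pool, where it also moved by more than 1.5 times, made no call. Over all 19 alternative fits the Dcn call was lost in 6. The Tgif1 call in other CD8 T cells was lost in whole-tumor libraries alone and with no upper limits (edgeR adjusted P = 0.102 in both). The Ski call held in 2 of 8 fits that left out 1 pool, those without PancVAX or without PancVAX + Anti-PD-1 + Anti-CTLA-4. Over all 19 alternative fits the Ski call was lost in 9, and its lowest value was 0.35. In CD4 T cells, with 1.48% of all genes called, Skil rose by 0.72 and Itgav fell by 1.05. Leaving out 1 pool ended the Skil call in 6 of 8 fits (it held without PancVAX or Isotype Control) and the Itgav call in 5 of 8 (it held without PancVAX + Anti-PD-1 + Anti-CTLA-4, Anti-PD-1 or Isotype Control). Over all 19 alternative fits, these included, each of these CD4 T cell calls was lost in 9. In the other fitted gates no list gene was called with PancVAX.

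Thbs1 was the member called in T cells as a whole, at 12.8 CPM in PancVAX, 24.8 CPM in PancVAX + Anti-PD-1, 16.5 CPM in PancVAX + Anti-CTLA-4 and 13.0 CPM with all 3 agents. Without the vaccine it was at 3.95 CPM in Anti-PD-1, 9.67 CPM in Anti-CTLA-4, 12.3 CPM in Anti-PD-1 + Anti-CTLA-4 and 6.65 CPM in Isotype Control. The log2 fold change was 0.97 ± 0.31 (SE, edgeR adjusted P = 0.0497), and it was -0.01 with no upper limits on cells and 0.98 with an adjusted P of 0.0538 in the fit over 16 libraries. Leaving out 1 pool ended the call in 6 of 8 fits, with 0.58 without PancVAX + Anti-PD-1 and 0.63 without Anti-PD-1, and it held without Anti-PD-1 + Anti-CTLA-4 or without the pool given all 3 agents. The T cell level was 0.76% of the neutrophil and 2.55% of the macrophage level, where S100a8, a neutrophil gene, was read in T cells at 0.19% of its neutrophil level. The 6 neutrophil markers summed in T cells to 19.1 to 25.9 CPM with and 11.0 to 39.7 CPM without PancVAX, the macrophage markers to 23.7 to 31.0 and 20.8 to 28.4 CPM, the epithelial or tumor markers to 50.1 to 89.4 and 24.4 to 53.2 CPM, and the stromal markers to 7.36 to 13.6 and 2.57 to 8.70 CPM. Their part in the Thbs1 value was not tested.

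In macrophages, Thbs1 was higher in each pool with PancVAX and was not called. In the C1q macrophage gate, which held 11077 of the 11530 macrophages or monocytes, it was at 428 CPM in PancVAX, 603 CPM in PancVAX + Anti-PD-1, 520.3 CPM in PancVAX + Anti-CTLA-4 and 494 CPM in PancVAX + Anti-PD-1 + Anti-CTLA-4. It was at 326 CPM in Anti-PD-1, 312 CPM in Anti-CTLA-4, 311 CPM in Anti-PD-1 + Anti-CTLA-4 and 355 CPM in Isotype Control. The groups did not overlap, and the gap between them was wider than the range of the pools without the vaccine.

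The log2 fold change was 0.60 ± 0.09 (SE), at an edgeR adjusted P of 0.0797. In this gate 0 of 11255 genes were called by edgeR with PancVAX, with 1550 at an unadjusted P below 0.05, while DESeq2 called 37. Thbs1 was among those DESeq2 called (0.60, adjusted P = 8.07e-06), and edgeR called it over the 16 libraries (0.62, adjusted P = 0.00166) and in whole-tumor libraries alone (0.64, adjusted P = 0.0245), but not in Percoll libraries alone (0.59, adjusted P = 0.331). The fit over 16 libraries counted both libraries of a treatment as separate units, though they may hold the same mice. Its smaller P is therefore not one over pools. The neutrophil markers in this gate summed to 128.4 to 150.1 CPM with and 104 to 128.5 CPM without PancVAX, and their part in the value was not tested. In macrophages or monocytes as a whole the log2 fold change of Thbs1 was 0.49 ± 0.07 (edgeR adjusted P = 0.0815).

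**Figure D4:**
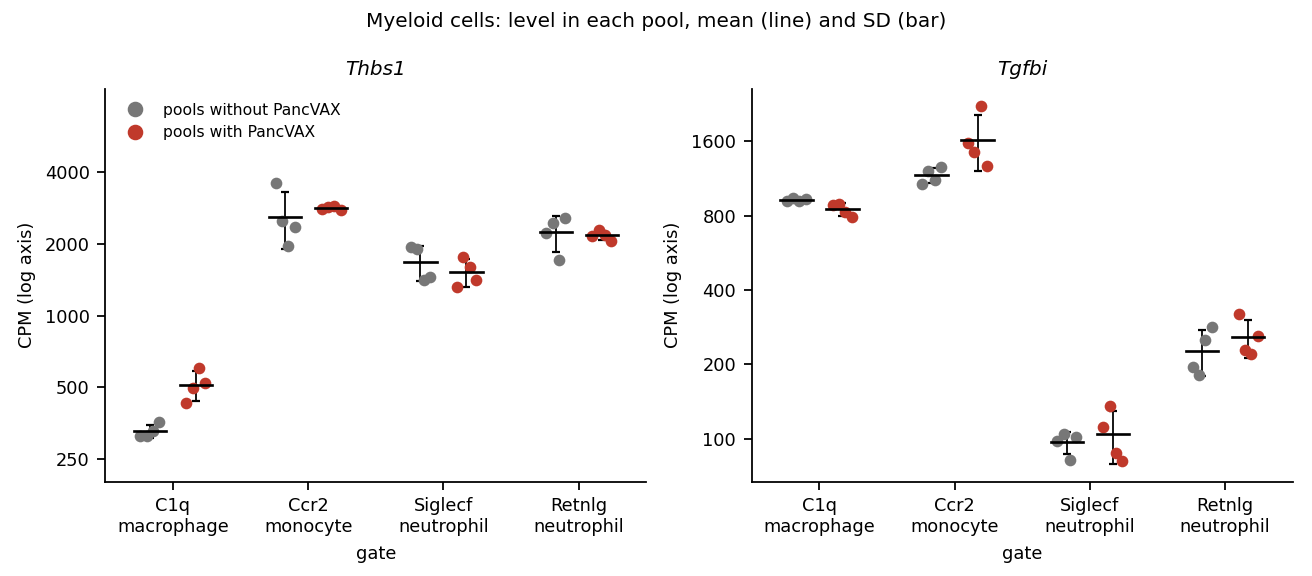
Thbs1 and Tgfbi in CPM (log y axis) in each of 4 pools without and 4 pools with PancVAX in 4 myeloid sub-gates (x axis), with lines at the mean and bars for the SD. Thbs1 in C1q macrophages runs from 428 to 603 CPM with and from 311 to 355 CPM without PancVAX, and the Ccr2 monocyte and neutrophil levels overlap between the groups.

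Tgfbi was lower over all cells with PancVAX, at 159 to 282 CPM against 291 to 338 CPM, and was not called (log2 fold change -0.49 ± 0.16, edgeR adjusted P = 0.204). It was -0.32 without the PancVAX + Anti-PD-1 pool, whose Percoll library stood apart, and -0.14 with no upper limits. Within macrophages or monocytes the difference was smaller, at -0.16 ± 0.06 (edgeR adjusted P = 0.272). A sum over all cells joins the mixture of cells with the level in each, and fewer cells of a type and less RNA per cell cannot be told apart in it. Over all cells 0 of 8 members were called with PancVAX, by edgeR and by DESeq2, with 3 at an unadjusted P below 0.05, beside 0.362% of all genes. Smad7 in endothelial cells had a log2 fold change of 0.99 ± 0.31 and was not called (edgeR adjusted P = 0.393, 235 cells). Tgfb1 had log2 fold changes between -0.17 and 0.41 over the 10 lineages, with 0 called.

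Anti-PD-1 and anti-CTLA-4 were read from the same fits. With anti-PD-1, 0 of 53 values over the lineages were called by edgeR and 0 by DESeq2, with 7 at an unadjusted P below 0.05, beside 0.383% of the values of all genes. Over the sub-gates 0 of 59 were called by edgeR and 1 by DESeq2, Thbs1 in Sox9 stromal cells, beside 0.114% for all genes. With anti-CTLA-4, 0 of 53 and 0 of 59 were called by either tool, with 1 and 2 at an unadjusted P below 0.05, beside 0.0201% and 0.00427%. The log2 fold change of Smad7 with anti-PD-1 was 0.27 over all cells and 0.39 in neutrophils (edgeR adjusted P = 0.960 and 0.565).

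In stromal cells Tgfbr2 was at 157 to 310.5 CPM with anti-PD-1 and 239 to 528 CPM without it, with a log2 fold change of -0.92 ± 0.28 (edgeR adjusted P = 0.0687). Of 20 list genes fitted in stromal cells 4 were called, beside 6.26% of 3210 genes. Dcn fell by 1.17 ± 0.22, Tgfbr3 by 1.86 ± 0.34 and Fmod, another TGF-β-binding proteoglycan, by 4.05 ± 1.01, while Tgif1 rose by 1.85 ± 0.47. Dcn ran from 3049 to 5894 CPM with and from 7324 to 9822 CPM without anti-PD-1. The gate held 265 cells over 8 pools, and with no upper limits none of the 4 was called, with Dcn at -0.16. The Fmod call was lost in each of the 6 fits that left out 1 pool, with -2.64 without PancVAX + Anti-PD-1 + Anti-CTLA-4. The Tgif1 call held in 2 of 8 such fits, at 1.75 without PancVAX + Anti-CTLA-4 and 2.80 without Isotype Control. The Dcn call was lost in 4 of 8 (without PancVAX, PancVAX + Anti-PD-1, Anti-PD-1 or Anti-PD-1 + Anti-CTLA-4) and the Tgfbr3 call in 2 of 8 (without PancVAX + Anti-PD-1 or Anti-PD-1 + Anti-CTLA-4). Sox9 stromal cells, gated on Sox9, Prelp and Ogn, were 153 of the 265 stromal cells. In them 0 of 14 fitted list genes were called with anti-PD-1, beside 2.86% of 2165 genes. Whether their share of the stromal gate differed between pools was not tested. In epithelial or tumor cells Acta2, smooth muscle actin, fell by 1.91 with anti-PD-1 and by 1.55 with anti-CTLA-4, from 211 UMIs, beside 0.15% and 0.129% of genes called, and neither was called in whole-tumor libraries alone. With a mitochondrial limit of 5% the anti-PD-1 value of Acta2 was -0.54 and was not called, and the call held in 4 of 8 fits that left out 1 pool (without PancVAX, Anti-PD-1, Anti-CTLA-4 or Anti-PD-1 + Anti-CTLA-4). Its anti-CTLA-4 call held in 2 of 8 (without PancVAX + Anti-PD-1 or Anti-PD-1). In the gate of 9498 cells with both Krt8 and Krt18, 0 of 30 fitted list genes were called with either antibody, beside 0.0256% of genes for each.

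Smad7 also differed between preparations. Percoll and whole-tumor libraries of the same treatment were compared with treatment as a block, and preparation was also the sequencing batch, so the gradient and the batch cannot be told apart. Over 9 lineages 4 of 45 values were called by edgeR and 4 by DESeq2, beside 5.6% of the values of all genes, and all 4 were Smad7, higher in Percoll libraries. Smad7 had a log2 fold change above 0 in each of the 8 lineages in which it was fitted, with a median of 0.53.

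In B cells Smad7 ran from 257 to 370 CPM, with a median of 288 CPM, in Percoll libraries, and from 99.5 to 197 CPM, with a median of 167 CPM, in whole-tumor libraries. The Percoll library was higher in 8 of 8 treatments and the ranges did not overlap, with a log2 fold change of 0.94 ± 0.11 (SE, edgeR). In neutrophils the medians were 121 and 73.1 CPM, again with no overlap (0.82 ± 0.11, 8 of 8 treatments). In NK cells the medians were 513 and 284 CPM (0.74 ± 0.19, 7 of 8 treatments, not called by DESeq2, with the stricter gate or with no upper limits), and in T cells 356 and 270.0 CPM (0.50 ± 0.06, 8 of 8 treatments, but 0.49 and not past the fold limit with no replicate block or with no upper limits), with overlapping ranges in both. In macrophages or monocytes the log2 fold change was 0.49, just under the fold limit.

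Over the sub-gates 6 of 49 values were called, 5 of them Smad7 and the other Tgfb1 in other CD8 T cells (log2 fold change 0.52, but 0.48 with no replicate block and 0.41 with no upper limits, under the fold limit), all higher in Percoll libraries, beside 4.98% of the values of all genes. Tgfb1 was higher in Percoll libraries in 8 of 8 treatments in T cells, with a log2 fold change of 0.38 ± 0.05, short of the fold limit. Tgfbr1 ran the other way over all cells, at -0.36 ± 0.06 (edgeR adjusted P = 0.00358, not past the fold limit). Over all cells 1 of 8 members was called, Smad7 at 0.62 ± 0.08, beside 6.46% of genes, and with no upper limits it was at 0.25 and not called. From the pathway list, Tgif1 and Skil were higher in Percoll libraries in B cells (0.73 and 0.61, the Skil call being lost with no replicate block and, at 0.47, with no upper limits), and Fn1, fibronectin, was lower in B cells (-1.40), neutrophils (-0.93) and CD4 T cells (-1.41), beside 7.39%, 12.9% and 2.84% of all genes called in these gates. Fn1 was at -0.17 in both B cells and neutrophils with no upper limits, and was called in neither.

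**Figure D5:**
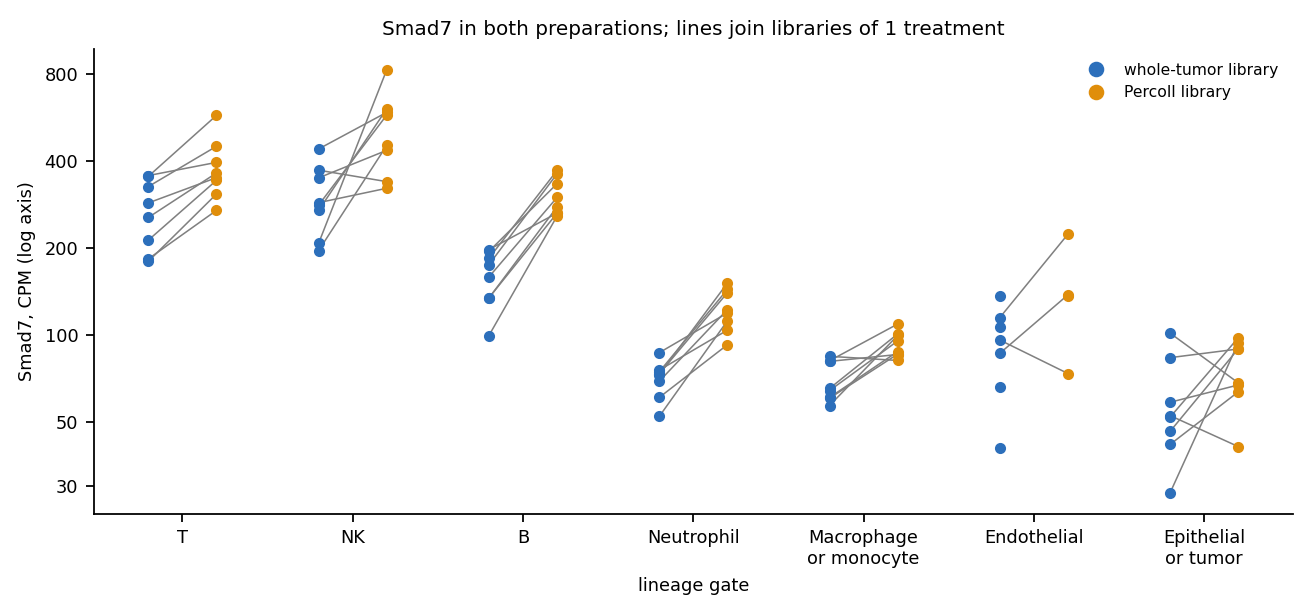
Smad7 in CPM (log y axis) in whole-tumor and Percoll libraries with at least 10 cells, in 7 lineage gates (x axis), with lines joining both libraries of a treatment. The Percoll library is higher in 8 of 8 treatments in T cells, B cells and neutrophils and in 7 of 8 in NK cells and macrophages or monocytes.

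The PancVAX difference was also compared between preparations by edgeR, and DESeq2 was not run for this comparison. Of the members' values, 0 of 46 over the lineages and 0 of 50 over the sub-gates were called, beside 0.0% and 0.00559% of the values of all genes. The unadjusted edgeR P was below 0.05 for 3 and 0 of them. This fit over single libraries had no block for treatment, so the pairing of both libraries of a treatment was not used. In CD8 T cells Smad7 averaged 309 CPM with and 180.5 CPM without PancVAX in whole-tumor libraries, and 428 and 278 CPM in Percoll libraries.

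For each member the genes with the most similar profile over the 10 lineages were found by Pearson's correlation of log2(mean CPM + 1) among 9495 genes, as a description over 10 points that share libraries. Smad7 was closest to Pim2 (r = 0.98), a kinase gene, Tgfb2 to Slc10a6 and Nox4 (r = 0.998 and 0.996, both highest in stromal cells), Tgfbr1 to Fth1 (r = 0.94), the ferritin heavy chain, and Thbs1 to Oas2 (r = 0.94). Tgfb3 was closest to Lrp6 (r = 0.95), Tgfbi to Bach1 (r = 0.93), Tgfb1 to Ubald1 (r = 0.90) and Tgfbr2 to Ankrd17 (r = 0.89).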

How the data were processed

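Per the labels and the study's methods, the authors made the deposited UMI count matrices from 10x 5′ libraries with Cell Ranger 4.0.0 on mm10. The deposited counts were not normalized. Cells with 200 to 3000 genes, 1000 to 10000 UMIs, under 10% mitochondrial UMIs and no hemoglobin UMI were kept here, after the study's limits. No doublet caller was run. A cell entered a lineage gate with at least 2 of 6 markers and at least 2 more than for any other lineage, and sub-gates used named genes within it. Counts were summed per gate and treatment over both preparations, and pools with at least 10 cells were fitted across all genes with edgeR 4.0.16 (TMM, quasi-likelihood, R 4.3.3), with DESeq2 1.42.0 as an alternative. Gates and sub-gates were also compared within pools by exact two-sided sign-flip tests on log2(CPM + 1) over 256 flips. For each comparison, up to 5 called rises and 5 falls of the pathway list were to be named. Tgif1, Skil, Ski, Smad2, Smad4, Smurf1 and Smurf2 in CD8 T cells were named beyond that rule after their values were seen. The study's own test per cell (MAST) was not used, since cells of 1 library are not replicates. The members, lists and tests were chosen with earlier results of these data known. The 8 T cell receptor libraries were not used. Intervals and floors cover counting error only, and a floor is 3 counts. A gate of cells with Krt8 and Krt18, fits without the Percoll library of PancVAX + Anti-PD-1, and CD8 T cells at fixed sub-gate shares, were added after seeing the data.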

Additional observations from a re-analysis of the deposited data

Results flagged for a closer look

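Dixon's test was applied to 106 groups of 4 pools, where chance flags about 1 in 20, and 5 single pools lay far from the other 3 of their group. In T cells without PancVAX, Tgfb1 was at 204.9 CPM in Isotype Control against 185.0 to 187.1 CPM in the other pools. In T cells with PancVAX, Tgfbr2 was at 136.3 CPM in PancVAX + Anti-PD-1 against 124.1 to 126.1 CPM. In B cells without PancVAX, the Anti-PD-1 + Anti-CTLA-4 pool stood apart for Tgfbr1, at 43.3 CPM against 19.4 to 21.8 CPM, and for Tgfbi, at 54.1 CPM against 12.9 to 16.8 CPM. In endothelial cells without PancVAX, Thbs1 was at 302.8 CPM in Isotype Control against 76.3 to 110.8 CPM.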

How the results depend on the processing

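For PancVAX within lineages, the 1 member called became 0 with RLE size factors, 0 in Percoll libraries alone, 0 with no hemoglobin limit, 0 with the stricter gate, 2 with no filter on low counts and 3 in whole-tumor libraries alone, and 0 to 3 without each pool in turn. In the fit over 16 libraries, with preparation as a covariate and no block for treatment, this count was 0, and within sub-gates it was 5. Both libraries of a treatment counted there as separate units. The 4 sub-gate calls became 2 with no upper limits, 1 without the Percoll library of PancVAX + Anti-PD-1, and 1 to 5 without each pool in turn. Over all cells, 1 member (Smad7) was called in whole-tumor libraries alone. For anti-PD-1 the count was 0 to 2 without each pool in turn, and for anti-CTLA-4 it was 1 with no filter on low counts. The Percoll comparison gave 3 calls with no replicate block. With no upper limits, 5 of the pathway list were called in CD8 T cells and 32 neighboring lineages separated. Under the main cell limits, the sub-gate comparisons that passed were 0 in whole-tumor libraries alone and 14 in Percoll libraries alone. These counts are bound by the smallest P that the test allows, as given above. Thbs1 reversed with no upper limits in T cells (-0.0058) and CD8 T cells (-0.0289). The causes were not tested. At fixed sub-gate shares the log2 difference in CD8 T cells was 0.46 for Smad7, under the fold limit, and 0.62 for Tgfbr1. The exact P there was unadjusted over genes and without antibody covariates, so the call rule was not applied. Without counting these fixed-share values, of 840 alternatives over 56 named values, 650 stayed on their side of the threshold, 165 fell below it, 23 rose past it and 2 reversed (the Thbs1 values above), and 5 more had no DESeq2 adjusted P. Those that stayed include values not called in the main fit, which cannot fall below it. The tally is therefore not a measure of how stable the calls were. Tgfbr1 in exhausted CD8 T cells rests on 166 UMIs, and the part of depth in the calls was not tested.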

Other observations

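A gate chosen after seeing the data was fitted in the same comparisons but left out of the counts over lineages and sub-gates above. It held 9498 cells with UMIs of both Krt8 and Krt18. Thbs1 averaged 285 ± 31.6 CPM in them, Tgfb1 142 ± 20.1 CPM, Smad7 75.4 ± 11.2 CPM, Tgfbr2 52.5 ± 4.11 CPM and Tgfbr1 37.9 ± 4.16 CPM (SD, n = 8 pools). With no upper limits on genes and UMIs per cell, 120419 barcodes passed in place of 57357.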
